A study of Mus musculus with 10 samples.

Results

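The genes described here are 36 endothelial markers and angiogenic factors, picked by name, with no threshold on their values, from 56750 features of the count table. Each of the 36 had a row, and each passed the filter on low counts, so that all of them are among the 24743 genes tested. RNA was sequenced from sarcomas of 2 mouse models. The dFLEx tumors (170019, 170024 and 170025) came from dFLEx CDS +/- mice, in which a CIC::DUX4 fusion sits in the Rosa26 locus behind a CAG promoter and is read only after Cre and FLP have both acted. They arose after plasmids for both recombinases (pCAG-Cre and pCAG-FLPE) were electroporated into the calf muscle of young adult mice. The KP tumors (3800 and 3802) came from mice carrying p53 fl/fl together with a further engineered allele, a sarcoma model without the fusion. The KP mice thus differed from the dFLEx mice in driver, p53 status and background alleles together, and the contributions of these cannot be told apart. Each RNA was split into duplicate libraries. Of these, 6 dFLEx and 3 KP libraries were analysed, with a single one for 3802.

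Endothelial cells line blood and lymphatic vessels and hold together through junction proteins such as PECAM1, VE-cadherin (Cdh5) and claudin 5 (Cldn5). Vessels grow when VEGF ligands made by the surrounding tissue bind VEGF receptors on endothelial cells, and the angiopoietins, acting through TIE2 (Tek), govern how tightly the vessel wall is sealed. VEGFA acts mainly through KDR on blood endothelium, whereas VEGFC acts mainly through FLT4 and is the principal growth factor of lymphatic vessels. A tumor contains its own vessels, and in a bulk sample more endothelial cells and more RNA per cell cannot be told apart, nor can RNA of vessels be told apart from RNA of tumor cells that express the same genes.

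Levels are counts divided by library size after scaling by the trimmed mean of M values, or TMM (CPM), and fold changes are log2 estimates, dFLEx over KP, with their standard errors (SE). Values are given in the order 170019, 170024 and 170025 for dFLEx and 3800 and 3802 for KP. The fusion contig had 105, 202 and 423 CPM in the dFLEx tumors and 0 and 0.244 CPM (0 and 6 counts) in the KP tumors. Tumor 3802 stood apart: it rested on 1 library with the lowest total (20503474 counts, where the other libraries held 22701166 to 46302223), yet it had counts for 36904 features, more than any other tumor. Over 1046 olfactory receptor genes, which should be silent in sarcoma, the pooled level per kilobase was 0.102 RPKM in 3802 and 0.0028 to 0.0224 RPKM in the other tumors. The 36 genes had between 21 and 37833 counts per tumor. Between duplicates their median coefficient of variation was 4.07% to 10.7% per tumor, while between tumors it was 39.4% within dFLEx and 56.3% within KP, so that the tumor was the unit of replication. Nothing in the labels says which mice were littermates, and the p-values measure only the spread between these tumors.

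As a group the endothelial genes lay higher in the dFLEx tumors. The estimate was above 0 for 29 of the 36 genes and below 0 for 7, with a median of 1.20, beside a median of -0.18 and 43.7% of estimates above 0 over all tested genes. In 16 of the 36 genes every dFLEx tumor was above both KP tumors (44.4%, against 13.7% of all tested genes), and in 2 genes, Vegfc and Prox1, every dFLEx tumor was below both (5.56%, against 11.7% of all tested genes). The other 18 overlapped between groups. Scaling moved these values together: on library totals the median was 0.89 for the 36 genes and -0.47 for all tested genes. No single gene passed the test: 0 of 36 had an adjusted p under 0.05 with edgeR on tumor sums, a threshold that 0.182% of all tested genes passed. Before adjustment, 8 of the genes were higher in dFLEx at p under 0.05 (a share of 5.65% over all tested genes) and 2 were lower (4.93%). The 8 were Plvap, Sox18, Aplnr, Pecam1, Eng, Sox17, Ramp2 and Vegfa, and the 2 were Vegfc and Prox1.

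The number called depended on the test. DESeq2 on the same tumor sums called 7 genes (Plvap, Vegfc, Sox18, Pecam1, Aplnr, Prox1 and Eng), where its share over all genes was 7.6%. A limma-voom fit with a random effect per tumor called 6 (Plvap, Pecam1, Vegfc, Sox18, Eng and Aplnr), with a share of 2.78% over all genes. Treating every library as independent, edgeR called 17 of the 36 and 17.1% of all genes, a fit that counts duplicates of 1 RNA as separate tumors.

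**Figure D1:**
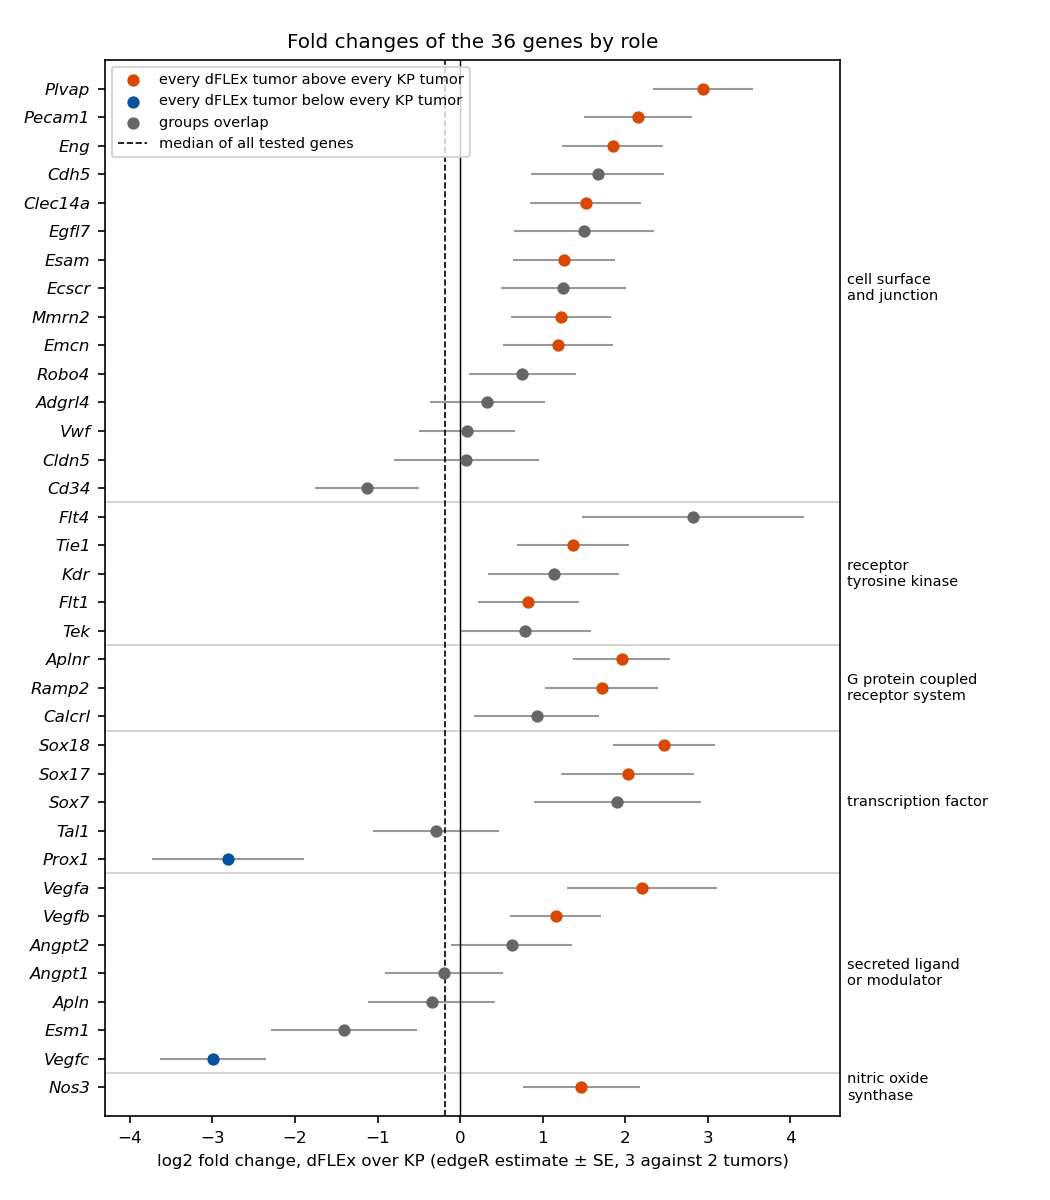
Log2 fold change of each of the 36 genes, dFLEx over KP, as the edgeR estimate with its SE (3 against 2 tumors), grouped by role. Colors show whether the tumors of the groups overlap, and the dashed line marks the median of all tested genes (-0.18). The estimates run from -2.99 for Vegfc to 2.94 for Plvap.

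Of the 15 genes grouped under surface and junction proteins, 14 had an estimate above 0 and 7 were fully separated upward (13.7% of all tested genes). The group also holds Vwf, Egfl7 and Mmrn2, whose products are secreted. The summed level of the 15 was 1121 to 1306 CPM in the dFLEx tumors and 510.3 to 559 CPM in the KP tumors. The largest estimate among all 36 genes was that of Plvap (ENSMUSG00000034845, chr8:71950409-71964396, GRCm39), which encodes the protein of the diaphragms of fenestrated endothelium. Plvap had 263, 325 and 334 CPM in the dFLEx tumors and 30.1 and 50.1 CPM in the KP tumors, with an estimate of 2.94 ± 0.60 (adjusted p = 0.117). Its lowest dFLEx tumor was above its highest KP tumor several times over, and its estimate stayed between 2.78 and 3.37 when any 1 tumor was left out. Pecam1 (ENSMUSG00000020717, chr11:106545043-106641454, GRCm39), which encodes the adhesion protein CD31, had 85.03, 132 and 206 CPM against 37.9 and 25.5 CPM, an estimate of 2.15 ± 0.65 (adjusted p = 0.259), with no overlap. Eng, which encodes the TGF-beta coreceptor endoglin, stood at 119, 134 and 229 CPM against 51.8 and 37.6 CPM, an estimate of 1.85 ± 0.61 (adjusted p = 0.308).

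Cdh5, the gene of VE-cadherin, had 39.5, 90.6 and 179.5 CPM in the dFLEx tumors and 45.5 and 19.6 CPM in the KP tumors, an estimate of 1.66 ± 0.81 (adjusted p = 0.557). Here the groups overlapped, because 170019 lay below 3800. Esam, Mmrn2, Emcn and Clec14a, which encode surface and matrix glycoproteins of endothelium, were each above both KP tumors in every dFLEx tumor, with estimates from 1.19 to 1.52. Ecscr (1.25), Egfl7 (1.50), Robo4 (0.75) and Adgrl4 (0.33) overlapped between groups, and Adgrl4 turned to -0.25 without 3802.

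A few classical markers did not follow the others. Vwf, which encodes von Willebrand factor, had 27.9, 26.9 and 30.7 CPM against 35.9 and 17.8 CPM, an estimate of 0.083 ± 0.59 (adjusted p = 0.986) that was negative on library totals (-0.18). Cldn5 was 103, 73.6 and 25.7 CPM in the dFLEx tumors and 18.7 and 109 CPM in the KP tumors, so that the highest and the lowest level of all were both found in KP. Its estimate of 0.073 ± 0.88 (adjusted p = 0.991) turned negative under all 3 other scalings, and was 1.86 without 3802 and -0.55 without 3800. Cd34, a sialomucin that fibroblast-like cells also carry, had 76.4, 63.98 and 85.2 CPM against 249.7 and 77.6 CPM, an estimate of -1.12 ± 0.63 (adjusted p = 0.655). The lower Cd34 value rested on 3800 alone, and without that tumor the estimate was 0.12.

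**Figure D2:**
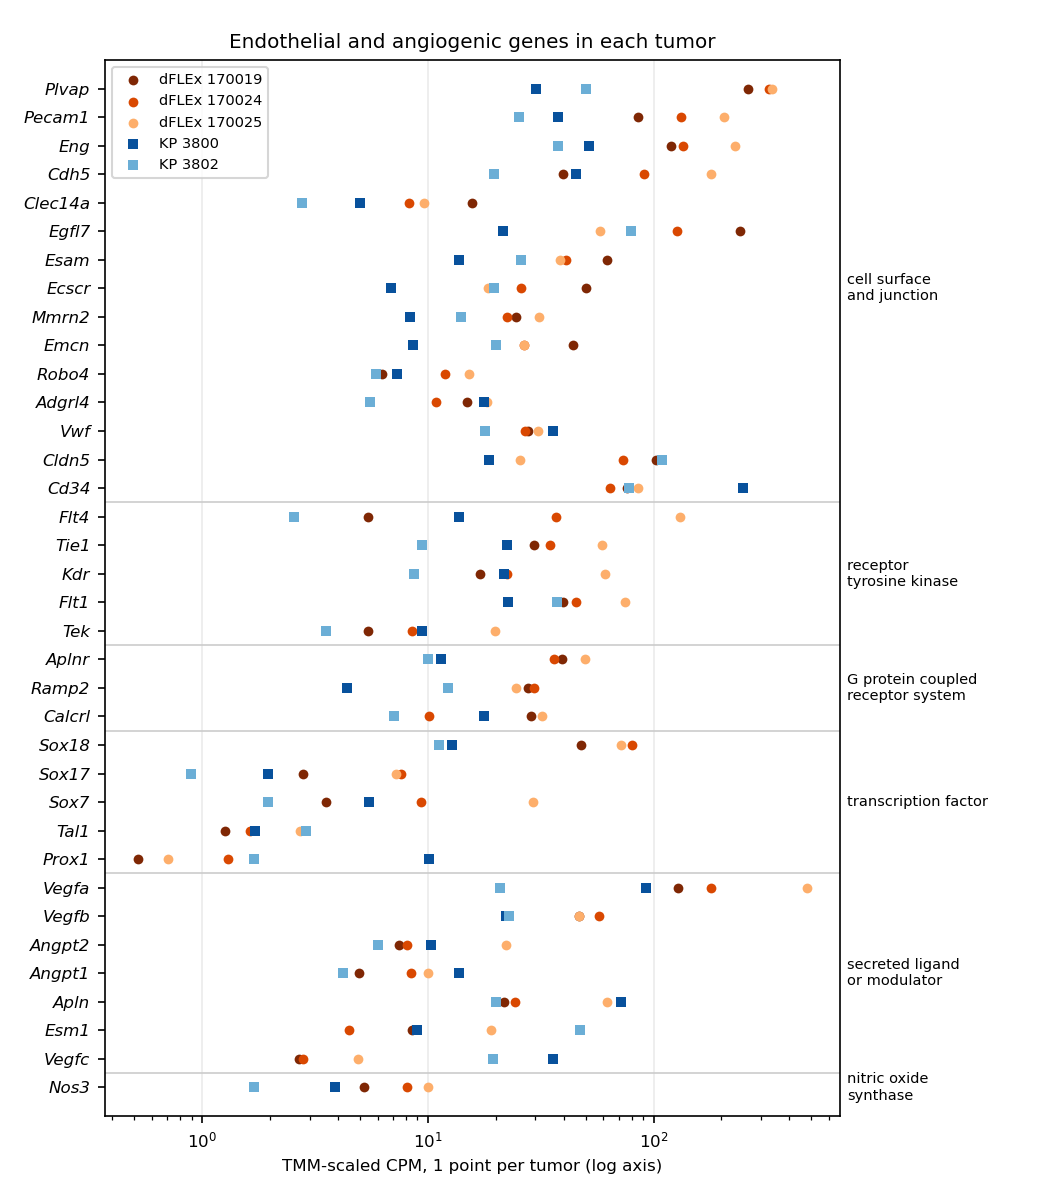
Level of each of the 36 genes in each tumor as TMM-scaled CPM on a log axis, 1 point per tumor, circles for dFLEx and squares for KP, grouped by role. Plvap, Sox18 and Aplnr show a clear gap between the groups, whereas Cldn5, Cd34 and most ligands overlap.

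To give 1 value per tumor for endothelial RNA, the CPM of 13 core endothelial genes were summed (Pecam1, Cdh5, Kdr, Tie1, Tek, Emcn, Esam, Cldn5, Robo4, Mmrn2, Clec14a, Ecscr and Adgrl4, all of them among the 36). The sum was 497, 509 and 709 CPM in the dFLEx tumors and 223 and 269.6 CPM in the KP tumors. A few genes made up much of it, and not the same ones in each tumor. Pecam1 and Cdh5 gave 206 and 179.5 CPM of the sum in 170025, and Cldn5 gave 109 CPM of that in 3802. The same limit applies where the sum serves as a denominator below. The means were 572 ± 119 CPM (SD, n = 3) and 247 ± 32.7 CPM (SD, n = 2), a 2.32-fold difference of means, and 170019 was 1.84-fold above 3802, the nearest tumors of the 2 groups. The log2 difference was 1.20 (exact two-sided permutation test over tumors, p = 0.2, the smallest p that 3 against 2 tumors can give). It lay between 0.90 and 1.13 under other scalings or with the first library of each tumor, and between 1.02 and 1.35 with any 1 tumor left out. None of the 13 genes was at 0 in any tumor. Markers of other cells differed between the groups as well. All 6 macrophage genes together summed to 630.1 to 767 CPM in the dFLEx tumors and 1563 to 1763 CPM in the KP tumors. Lyz2 alone made up most of each macrophage sum, at 507, 529 and 495 CPM against 1396 and 1232 CPM. Of the 6, 5 had an estimate below 0 and 1 above. The 8 skeletal myofiber genes summed to 7880.1 to 31050.5 CPM in the dFLEx tumors and 1276 to 3846 CPM in the KP tumors. The 8 pericyte genes, whose cells wrap small vessels, summed to 675 to 1262 CPM in dFLEx and 122 to 467 CPM in KP. Rgs5 alone made up most of each dFLEx sum, at 826, 473 and 776 CPM against 249 and 16.5 CPM in KP. The median estimate of the 8 was 1.08. Of them, 3 were fully separated upward (37.5%, against 13.7% of all tested genes) and 5 overlapped between groups. The part of tissue composition in the endothelial values was not tested.

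Expressed relative to the summed core genes of the same tumor (a gene of the core being left out of its own denominator), 11 of the 36 genes were fully separated between groups, 5 upward and 6 downward. Over all tested genes 3.97% were separated upward and 34.8% downward on this scale, so that the 6 downward genes were a smaller share than among genes in general. This ratio does not depend on library scaling. Plvap amounted to 52.97, 63.8 and 47.1% against 13.5 and 18.6% of the core sum, a log2 difference of 1.78, and Sox18 to 9.60, 15.8 and 10.1% against 5.75 and 4.16%, a difference of 1.24. Pecam1 (1.08), Aplnr (0.75) and Eng (0.60) were the other genes that were higher relative to the core in every dFLEx tumor. Vegfc (-4.18), Prox1 (-3.61), Esm1 (-2.41), Cd34 (-2.10), Tal1 (-1.53) and Vwf (-1.03) were lower relative to the core in every dFLEx tumor. Each of these 11 differences had p = 0.2 in the exact permutation test, the smallest possible value. The difference of Prox1 was -2.19 without 3800 and -5.03 without 3802, and that of Cd34 was -1.12 and -3.08. Vegfa, with 25.9, 35.4 and 67.2% against 41.6 and 7.78%, overlapped between groups, and its difference of 1.14 was 2.34 without 3800 and -0.074 without 3802.

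The 5 receptor tyrosine kinases all had estimates above 0 and summed to 96.9 to 345 CPM in the dFLEx tumors and 61.6 to 90.1 CPM in the KP tumors. Kdr, the main signaling receptor for VEGFA, had 16.99, 22.4 and 60.9 CPM against 21.7 and 8.70 CPM, an estimate of 1.13 ± 0.80 (adjusted p = 0.784), and only 170025 was clearly above the KP tumors. Flt1, which encodes VEGFR1 and its soluble decoy form, had 39.6, 45.2 and 74.99 CPM against 22.8 and 37.3 CPM, an estimate of 0.83 ± 0.61 (adjusted p = 0.802), with 170019 just above 3802. For Tie1, an orphan receptor that modulates TIE2, the values were 29.5, 34.8 and 59.1 CPM against 22.4 and 9.47 CPM, an estimate of 1.37 ± 0.68 (adjusted p = 0.578) without overlap. Tek, the angiopoietin receptor, had 5.45, 8.53 and 19.8 CPM against 9.43 and 3.54 CPM, an estimate of 0.79 ± 0.80 (adjusted p = 0.878), and 3800 was above 2 of the 3 dFLEx tumors. Flt4 (ENSMUSG00000020357, chr11:49500090-49543566, GRCm39), which encodes the VEGFC receptor VEGFR3, was the most uneven gene: 5.42, 37.1 and 131 CPM against 13.8 and 2.56 CPM, an estimate of 2.82 ± 1.35 (adjusted p = 0.548). Within dFLEx it spanned 24.1-fold from 170019 to 170025, and the estimate was 1.38 without 170025 and 4.67 without 3800.

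In the receptor group that signals through G proteins, Aplnr, the apelin receptor of sprouting and venous endothelium, had 39.4, 36.2 and 49.7 CPM against 11.5 and 10.04 CPM, an estimate of 1.96 ± 0.59 (adjusted p = 0.256). The dFLEx values were close together and all above KP, and the estimate was between 1.81 and 2.22 with any 1 tumor left out. Ramp2 and Calcrl encode the subunits that together form an adrenomedullin receptor. Ramp2 stood at 27.7, 29.7 and 24.7 CPM against 4.38 and 12.3 CPM (1.71 ± 0.68) with no overlap, and Calcrl at 28.7, 10.1 and 32.01 CPM against 17.7 and 7.07 CPM (0.93 ± 0.75), where 170024 was below 3800. Nos3, which encodes the endothelial nitric oxide synthase, had 5.22, 8.08 and 9.99 CPM against 3.88 and 1.71 CPM (1.47 ± 0.71), separated but at low levels.

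The 3 SoxF transcription factors, which specify endothelial and arterial identity, had estimates near 2 or above. Sox18 (ENSMUSG00000046470, chr2:181311629-181313433, GRCm39) was at 47.7, 80.6 and 71.7 CPM against 12.8 and 11.2 CPM, an estimate of 2.47 ± 0.61 (adjusted p = 0.177), the third smallest p of the 36 genes. Sox17 was at 2.79, 7.58 and 7.26 CPM against 1.96 and 0.894 CPM (2.03 ± 0.80), also without overlap, and Sox7 at 3.53, 9.29 and 29.2 CPM against 5.51 and 1.95 CPM (1.90 ± 1.01), where 170019 was below 3800. Tal1, a factor of blood and endothelial progenitors, had 1.27, 1.63 and 2.72 CPM against 1.72 and 2.89 CPM (-0.29 ± 0.76). Prox1 (ENSMUSG00000010175, chr1:189850232-189902911, GRCm39), the master factor of lymphatic endothelium that is also expressed in skeletal muscle, was at 0.522, 1.30 and 0.705 CPM against 10.1 and 1.71 CPM, an estimate of -2.81 ± 0.92 (adjusted p = 0.3). Most of that difference came from 3800, and the estimate was -0.85 without it. Per kilobase, Prox1 had 1.21 and 0.203 RPKM in 3800 and 3802, the latter close to the 0.102 RPKM of the silent olfactory genes in that tumor.

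Among the 7 secreted factors the VEGF ligands pointed in different directions. Vegfa (ENSMUSG00000023951, chr17:46327919-46343295, GRCm39) had 129, 180.3 and 477 CPM in the dFLEx tumors and 92.8 and 20.97 CPM in the KP tumors, an estimate of 2.20 ± 0.90 (adjusted p = 0.438). All dFLEx tumors were above both KP tumors, but 170019 was not far above 3800, and the estimate was 1.51 without 3802 and 3.82 without 3800. Vegfb, a ligand of FLT1, had 46.7, 57.5 and 46.6 CPM against 22.2 and 22.8 CPM, an estimate of 1.16 ± 0.55 (adjusted p = 0.549), with little spread inside either group. When trends with GC content and gene length were removed, its levels were 31.0, 47.4 and 60.3 CPM against 31.2 and 23.5 CPM. The groups then overlapped, and the estimate was 0.76. Vegfc (ENSMUSG00000031520, chr8:54530641-54640131, GRCm39) went the other way, with 2.69, 2.79 and 4.91 CPM in the dFLEx tumors and 35.7 and 19.4 CPM in the KP tumors, an estimate of -2.99 ± 0.64 (adjusted p = 0.123). Its highest dFLEx tumor was well below its lowest KP tumor, and the estimate lay between -3.35 and -2.31 with any 1 tumor left out. Vegfa is a known target of the hypoxia response. A list of 10 other genes of that response had a median estimate of 0.87. Of them, 4 were fully separated upward (13.7% of all tested genes) and 6 overlapped between groups. Whether hypoxia had a part in the Vegfa values was not tested. The highest of the list were Car9 (156, 95.5 and 137 CPM against 7.32 and 6.87 CPM, 4.19 ± 0.65, adjusted p = 0.0744) and Ankrd37 (2.28), and the lowest were Slc2a1 (-0.17) and Pgk1 (0.28).

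The sequences before the transcription starts of Vegfa, Vegfc and Flt4 are shown because the ratios of Vegfa to Vegfc and of Vegfc to Flt4 differed between the groups without overlap, as given further on, although Flt4 itself overlapped. They are the 250 bases upstream of the start from RefSeq on GRCm38.p6, an older build than that of the counts, 5′ to 3′ on the strand of the gene. Capitals mark GC boxes (GGGCGG or its reverse complement CCGCCC), sites of the kind bound by SP1. Vegfa has a further window at an internal start that is not shown.
Vegfa (chr17:46032378-46032627, minus strand): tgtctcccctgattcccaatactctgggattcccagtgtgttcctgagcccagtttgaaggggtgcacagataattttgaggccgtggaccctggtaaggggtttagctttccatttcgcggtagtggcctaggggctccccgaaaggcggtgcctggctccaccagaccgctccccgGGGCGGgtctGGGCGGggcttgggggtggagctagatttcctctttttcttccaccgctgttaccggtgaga
Vegfc (chr8:54077282-54077531, plus strand): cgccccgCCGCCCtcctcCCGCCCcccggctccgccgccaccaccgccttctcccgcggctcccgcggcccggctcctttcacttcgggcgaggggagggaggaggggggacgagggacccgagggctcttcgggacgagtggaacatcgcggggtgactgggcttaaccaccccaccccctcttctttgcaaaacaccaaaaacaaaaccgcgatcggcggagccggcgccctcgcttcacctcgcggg
Flt4 (chr11:49609429-49609678, plus strand): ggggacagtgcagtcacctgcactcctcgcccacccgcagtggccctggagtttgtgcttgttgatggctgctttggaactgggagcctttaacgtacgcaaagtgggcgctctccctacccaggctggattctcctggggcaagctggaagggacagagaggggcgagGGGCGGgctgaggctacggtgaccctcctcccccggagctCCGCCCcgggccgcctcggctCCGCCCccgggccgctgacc
The windows hold 2, 2 and 3 GC boxes. Over windows reaching 50 bases past the start, 12 of the 21 genes of the 36 that matched an entry hold a GC box, beside 38.2% of all 27025 gene symbols. The octamers recognized by CIC (TGAATGAA, TGAATGGA, TCAATGAA or TCAATGGA on either strand) are in none of the 26 windows of these 21 genes, beside 4.45% of all symbols and 3 of 5 matched fusion target genes (Dusp6, Shc4 and Spred3). The absence of a match says only that these letters are not in these windows. Entries were not matched for Angpt1, Angpt2, Aplnr, Cdh5, Ecscr, Esam, Mmrn2, Nos3, Pecam1, Plvap, Ramp2, Sox17, Sox18, Sox7 and Vwf.

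The remaining ligands overlapped between groups. Angpt1, the TIE2 agonist made by perivascular cells, had 4.98, 8.46 and 10.04 CPM against 13.7 and 4.23 CPM (-0.20 ± 0.71, adjusted p = 0.971). Angpt2, its context-dependent antagonist made by activated endothelium, had 7.49, 8.10 and 22.2 CPM against 10.4 and 6.01 CPM (0.62 ± 0.73, adjusted p = 0.894). Apln, the ligand of Aplnr, was at 21.8, 24.3 and 62.3 CPM against 71.6 and 20.03 CPM (-0.34 ± 0.77), and Esm1, a proteoglycan of tip cells, at 8.51, 4.46 and 19.00 CPM against 9.00 and 47.5 CPM (-1.40 ± 0.88). The high Esm1 level of 3802 set that estimate, which was 0.26 without 3802. Without 3800 the estimates of Angpt1 and Apln changed sign, to 1.06 and 1.02.

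Ratios of ligand to receptor, or of ligand to ligand, within a tumor, taken per exonic length (RPKM), set these differences side by side. The ratio of Vegfc to Flt4 was 1.67, 0.253 and 0.126 in the dFLEx tumors and 8.72 and 25.5 in the KP tumors, a log2 difference of -5.31. The ratio of Vegfa to Vegfc was 27.4, 36.9 and 55.4 in the dFLEx tumors and 1.48 and 0.618 in the KP tumors (5.32). Vegfa exceeded Kdr by similar amounts in all dFLEx tumors, at 15.9, 17.00 and 16.5 in the dFLEx tumors and 9.00 and 5.08 in the KP tumors (1.28). The ratio of Apln to Aplnr was 0.648, 0.788 and 1.47 in the dFLEx tumors and 7.34 and 2.34 in the KP tumors (-2.19). These 4 ratios did not overlap between the groups, whereas those of Angpt2 to Angpt1, Angpt2 to Tek and Vegfa to Vegfb did. Because Vegfa was higher and Vegfc lower in every dFLEx tumor, their ratio had to separate and adds no further evidence. The ratio of Vegfc to Flt4 uses the same low Vegfc values, and no share over other gene pairs was taken. Over the 7 ratios compared, the 4 separated ones had an exact permutation p = 0.2, the smallest possible, and 0.35 after Benjamini-Hochberg adjustment.

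**Figure D3:**
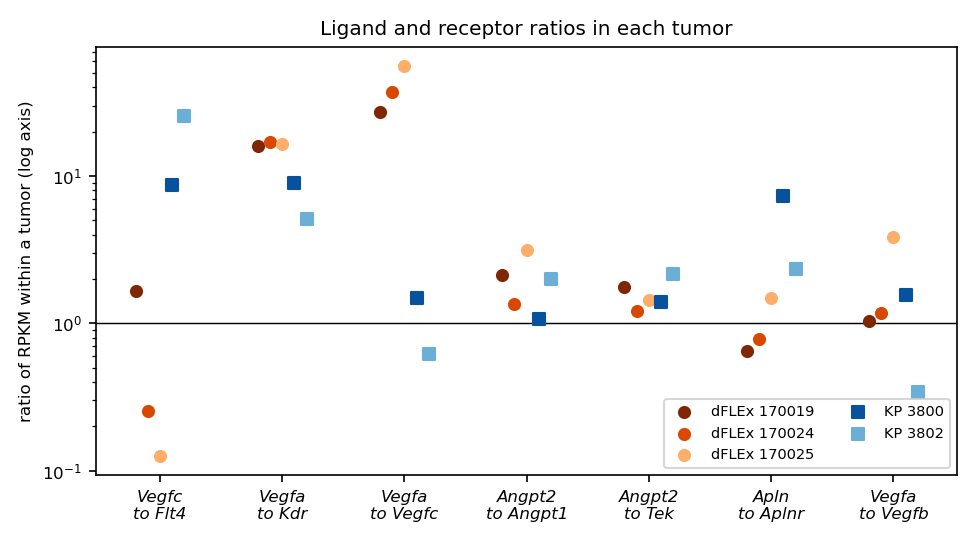
Ratio of RPKM between 2 genes within each tumor on a log axis, circles for dFLEx and squares for KP, with the line at equal levels. The Vegfc to Flt4 ratio is 8.72 and 25.5 in KP and at most 1.67 in dFLEx, and the Vegfa to Vegfc ratio is 27.4 or more in dFLEx and at most 1.48 in KP.

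Ranked per exonic length over the 36 genes, Plvap was first in the dFLEx tumors (133, 163 and 168 RPKM), followed by Vegfa, Cldn5, Sox18, Egfl7 and Eng, whose RPKM values overlapped one another. In the KP tumors the mean level was highest for Cldn5 (13.2 and 77.1 RPKM), Cd34 (34.3 and 10.6 RPKM) and Plvap (15.2 and 25.2 RPKM), in an order that the spread between the 2 tumors did not resolve. Vegfc ranked 9 in KP (14.6 and 7.91 RPKM) and 33 in dFLEx (1.10, 1.14 and 2.01 RPKM). Sox18 ranked 13 in KP and 4 in dFLEx, and Flt4 ranked 31 and 17. Prox1 and Tal1 were among the lowest 4 genes in both models.

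Tumors of the same group also differed from one another. Of the 36 genes, 14 were over 2-fold higher and 3 over 2-fold lower in 170025 than in 170019, and 16 were over 2-fold higher and 6 over 2-fold lower in 3800 than in 3802. Among 15264 genes whose mean reached 1 CPM, 35.4% and 18.7% passed the same limits in the dFLEx pair and 39.8% and 17.9% in the KP pair. Flt4, Sox7, Cdh5, Kdr, Tek and Vegfa were higher in both 170025 and 3800, and Cldn5, Egfl7, Ecscr, Emcn and Esam were lower in both. In all, 23 genes were higher in both, 7 lower in both and 6 went in opposite directions. Over the 36 genes the log2 ratios of the pairs had a Pearson correlation of 0.63 and a Spearman correlation of 0.56, and over the 15264 genes these were 0.63 and 0.64. The pairs share no library. The ratio between 170025 and 170019 had r = 0.33 with log2 exonic length over the 36 genes and 0.54 over the 15264 genes, and that between 3800 and 3802 had r = 0.50 and 0.34. With GC content the correlation was -0.0085 and -0.076 for the dFLEx pair and -0.25 and -0.13 for the KP pair, over the 36 genes and over the 15219 of the 15264 genes that had a GC value. Genes are not independent replicates, and these correlations are descriptions. CIC::DUX4 was also highest in 170025 and lowest in 170019. When the dependence of each tumor on GC content and gene length was removed, a setting chosen after seeing the data, the median estimate of the 36 genes was 0.92, and 17 genes were fully separated upward (13.3% of all tested genes) and 2 downward (16.1%). The separated genes were not the same ones: Emcn, Flt1 and Vegfb now overlapped, whereas Ecscr, Adgrl4, Kdr and Angpt2 were now separated upward. Plvap, Sox18 and Vegfc then had estimates of 2.46, 1.71 and -3.21. The gap of Sox18 was narrow on this scale, with 28.7 CPM in 170019 and 23.3 CPM in 3800.

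**Figure D4:**
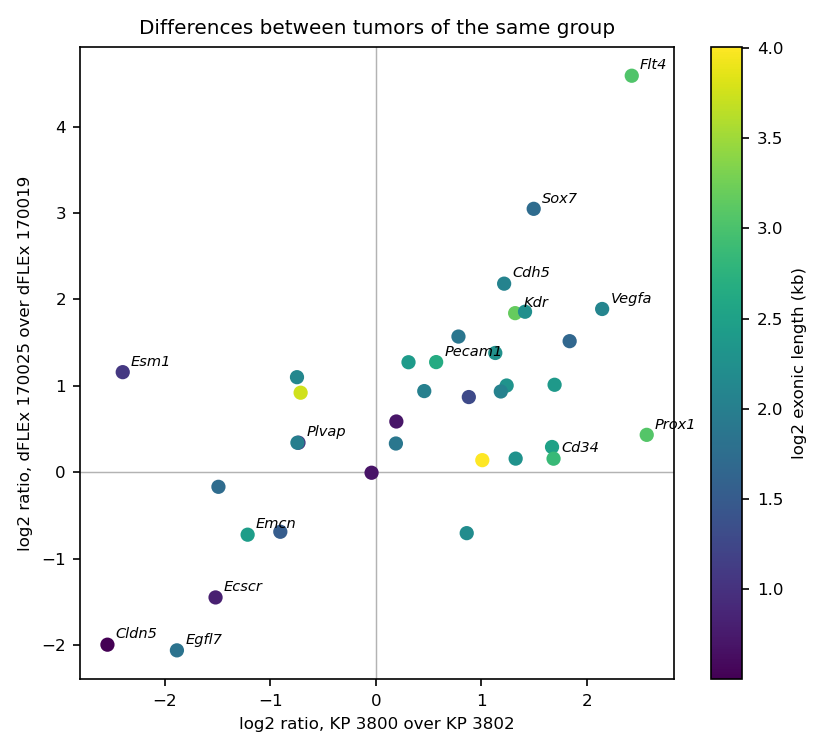
Log2 ratio between 2 dFLEx tumors (170025 over 170019) against that between the 2 KP tumors (3800 over 3802), 1 point for each of the 36 genes, colored by log2 exonic length in kilobases. Flt4 and Vegfa lie high in both pairs and Cldn5 and Egfl7 low in both (r = 0.63 over 36 genes).

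Further genes of endothelium outside the 36 were followed to see whether the pattern extended. Of 20 further endothelial genes, 17 had an estimate above 0, beside 43.7% of all tested genes, and the median was 0.72. Of these 20, 9 were fully separated upward (45%, against 13.7% of all tested genes), and 0 passed the adjusted threshold. The highest were Adgrf5, an adhesion receptor (26.2, 61.7 and 245 CPM against 18.7 and 5.81 CPM, 3.17 ± 1.12, adjusted p = 0.349), and Arhgef15, a guanine nucleotide exchange factor (26.99, 38.2 and 67.2 CPM against 7.28 and 5.53 CPM, 2.78 ± 0.70, adjusted p = 0.185). The lowest were Klf2, a flow-responsive factor (38.6, 55.2 and 31.7 CPM against 74.8 and 119.5 CPM, -1.22 ± 0.56), and Lmo2 (-0.53). Of 18 further genes of the VEGF, angiopoietin and Notch axes, 15 were above 0 (median 0.80). Fully separated upward were 8 of the 18 (44.4%, against 13.7% of all tested genes). Notch4, a Notch receptor of endothelium, was at 74.6, 212 and 368 CPM against 14.8 and 7.35 CPM (4.30 ± 0.92, adjusted p = 0.123), and the Notch target Hey1 at 167, 83.8 and 92.1 CPM against 8.14 and 10.4 CPM (3.62 ± 0.68, adjusted p = 0.097). The receptor gene Notch1 did not follow, with 3.98, 8.01 and 75.7 CPM against 75.0 and 5.04 CPM (-0.45 ± 1.38). Efnb2, an arterial ephrin (9.03, 12.5 and 42.2 CPM against 137 and 14.1 CPM, -1.83 ± 1.02), and Nrp2, a coreceptor for VEGFC (27.9, 35.96 and 63.5 CPM against 190.3 and 38.6 CPM, -1.43 ± 0.76), were the lowest, and in both 3800 was far above every other tumor.

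Most lymphatic markers had estimates below 0, but 2 were above 0. Of 8 lymphatic genes, which include Prox1 and Flt4 of the 36, 6 had an estimate below 0. Their median was -0.98 over the 8, beside -0.18 over all tested genes. Fully separated downward were 3 of the 8 (Reln, Mmrn1 and Prox1), beside 11.7% of all tested genes. The summed level of the 8 was 121 to 273 CPM in the dFLEx tumors and 160.0 to 336 CPM in the KP tumors. Reln, which encodes the secreted protein reelin, had 2.04, 2.64 and 1.47 CPM against 104 and 23.8 CPM (-4.96 ± 0.81, adjusted p = 0.0784). Foxc2, a factor of lymphatic valves, was the highest, at 8.61, 8.81 and 32.3 CPM against 0.403 and 3.29 CPM (3.19 ± 1.14), followed by Flt4. Reln, Foxc2 and several others of these genes are also made by other cells, and 0 of the 8 passed the adjusted threshold.

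**Figure D5:**
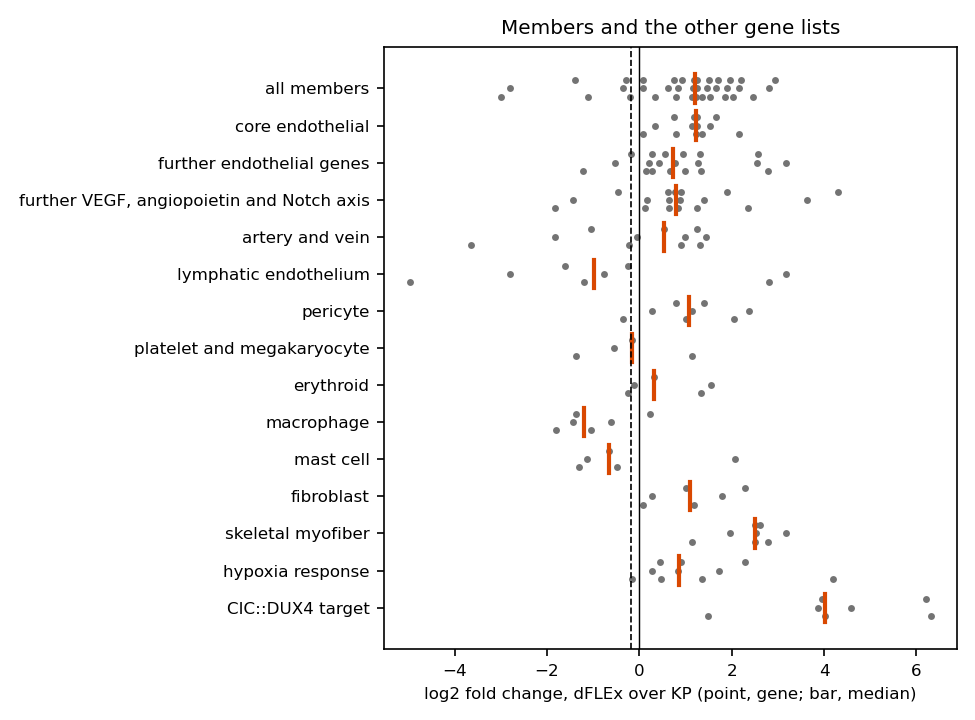
Log2 fold change, dFLEx over KP, of every tested gene of each list (points), with the list median (bar) and the median of all tested genes (dashed line); Gp9, which had no counts in KP, is not drawn. The 36 genes have a median of 1.20, the lymphatic list -0.98, the macrophage list -1.21 and the myofiber list 2.51.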

How the data were processed

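The authors trimmed paired reads of ribosomal RNA-depleted libraries with Trimmomatic 0.39, aligned them with STAR 2.7.10a to mm39 plus a CIC::DUX4 contig, and deposited raw counts per gene from featureCounts 2.0.3. Per the file headers, mates were counted as separate reads and strand was ignored, so that overlapping and antisense genes cannot be separated and counting error is understated.

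Counts were summed over the libraries of a tumor, filtered with filterByExpr, scaled by TMM and compared with edgeR 4.0.16 (glmQLFit, glmQLFTest), with Benjamini-Hochberg adjustment over 24743 genes and a threshold of 0.05. SE is the absolute log2 fold change over the square root of F. Alternatives used DESeq2 1.42.0, limma 3.58.1, other scalings, filters and libraries, and each tumor left out. Symbols came from GENCODE M39 (56017 of 56750 features). Functions were tested on simulated data. The further allele of the KP mice is not reported here. A count of 3, taken as the limit for 0 counts, equals 0.0648 to 0.146 CPM. The 36 genes were picked by name and not by a threshold on their values, but they, the lists and the tests were chosen with earlier results of these data known. Values in every tumor are given for the 6 highest and lowest estimates, VEGF and angiopoietin ligands and receptors, Pecam1, Cdh5 and others that complete a role. Of most further lists the 2 highest and lowest genes are named, some by their estimate alone.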

Additional observations from a re-analysis of the deposited data

How the results depend on the processing

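The median estimate of the 36 genes (1.20) was between 0.89 and 1.38 under the other settings and between 1.00 and 1.33 with each tumor left out. The main test called 0 of the 36 and 45 of all genes (25 higher and 20 lower in dFLEx, against 14 and 20 on library totals and 17 and 33 on the upper quartile). DESeq2 on tumor sums called 7 and 1516, edgeR on single libraries 17 and 3344, limma-voom with a random effect per tumor 6 and 543, and edgeR without a filter 2 (Vegfc and Plvap) and 880. A minimum of 1 CPM called 0 and 80, and removal of GC and length trends, added after seeing the data, 0 and 148. With each tumor left out, 0 of the 36 were called, and of all genes between 0 (without 170019 or 170024) and 414 (without 3802), with 9 without 170025 and 8 without 3800. A KP group left with 1 tumor was assumed to vary like dFLEx. The duplicate number as a replicate block in the limma-voom fit called 4 and 349. Differences between duplicates correlated between tumors at -0.018 to 0.021, which cannot show whether libraries of the same number shared a preparation or run.

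The sign of the estimate held in 27 of the 36 genes under every setting. Cldn5 (0.073) reversed to -0.056 with DESeq2, -0.056 on its size factors, -0.32 on library totals, -0.30 on the upper quartile, -0.21 with the 1 CPM minimum, -0.13 with first libraries, -0.058 with halved counts and -0.60 with trends removed, and ran from -0.55 to 1.86 over left-out tumors. Vwf reversed to -0.067 on single libraries, -0.18 on library totals and -0.0059 with first libraries, and Angpt1 to 0.065 with trends removed. Over left-out tumors the estimates ran from -0.32 to 0.84 for Vwf, -0.79 to 1.06 for Angpt1, -1.71 to 0.12 for Cd34, -0.25 to 1.56 for Adgrl4, -0.68 to 0.14 for Tal1, -0.077 to 1.24 for Angpt2, -0.99 to 1.02 for Apln and -2.15 to 0.26 for Esm1. The causes were not tested. With 3 against 2 tumors, single values cannot reach a permutation p under 0.2.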

Other observations

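Artery and vein genes gave no common direction. Of 11 genes, 6 had an estimate above 0 and 5 below, with a median of 0.53. The highest were Ackr1, a chemokine-binding receptor of venules (2.49, 4.49 and 2.05 CPM against 0.296 and 1.95 CPM, 1.44 ± 0.99), and Gja4, a connexin of arteries (16.8, 10.8 and 6.68 CPM against 3.99 and 5.20 CPM, 1.32 ± 0.67). The lowest were Sele, the inducible adhesion receptor E-selectin (0.0249, 0.295 and 0.516 CPM against 6.43 and 0.650 CPM, -3.64 ± 1.33, adjusted p = 0.371), and Efnb2 (-1.83). In 170019 Sele rested on 1 count, below the limit taken for 0. Only 3800 was far above the dFLEx tumors, while 3802 was close to 170025. Selp, which encodes P-selectin, was at 0.970, 0.954 and 2.03 CPM against 0.981 and 2.11 CPM.

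Genes of blood cells carried in vessels did not track the endothelial sum. The 6 erythroid genes summed to 362 to 1016 CPM in the dFLEx tumors and 67.7 to 1504 CPM in the KP tumors, with the lowest and the highest level both in KP (3800 and 3802), and the 6 platelet genes to 33.7 to 55.7 CPM in the dFLEx tumors and 18.5 to 104 CPM in the KP tumors, again with both extremes in KP. Gp9, a platelet surface gene, had 2.24, 1.27 and 1.50 CPM in the dFLEx tumors and 0 counts in both KP tumors, and Gp1bb had 0 counts in every tumor. The 6 mast cell genes summed to 50.1 to 67.3 CPM in the dFLEx tumors and 34.9 to 91.02 CPM in the KP tumors. Among them Kit was higher in every dFLEx tumor (2.07 ± 0.76), while the other 4 tested genes had estimates below 0. The 6 fibroblast genes summed to 4015 to 13057 CPM in the dFLEx tumors and 1920.3 to 4379 CPM in the KP tumors. Among the pericyte genes, Rgs5 (826, 473 and 776 CPM against 249 and 16.5 CPM, 2.38 ± 1.05) and Kcnj8 (2.05 ± 0.63) were highest and Cspg4 (-0.36) and Notch3 (0.28) lowest. Of the macrophage genes, Cd68 (0.24) and Mrc1 (-0.61) were highest and Adgre1 (-1.81) and Cd14 (-1.45) lowest, and of the myofiber genes Myh4 (3.17) and Mylpf (2.78) were highest and Myh2 (1.14) and Myh1 (1.97) lowest. Col1a1 (2.30) and Lum (1.80) led the fibroblast genes, with Dcn (0.071) and Pdgfra (0.27) lowest. The 7 fusion target genes were each above both KP tumors in every dFLEx tumor (median 4.02), a list chosen in the study on samples of this kind and not independent evidence.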
